A study of Astatotilapia calliptera and Pundamilia nyererei and Oreochromis niloticus with 31 samples.

Results

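piRNAs mapping to transposable elements (TEs) were compared between testes and ovaries of *Astatotilapia calliptera* (AC), a generalist haplochromine cichlid of Lake Malawi. The comparison used every column of AC testes (n = 4 libraries) and AC ovaries (n = 3) in the table made with the curated TE annotation, that is 7 of the 31 libraries of the series, and all 557 TE entries of that table. An entry is a TE family, or 1 part of a long terminal repeat (LTR) element: 162 entries are internal regions ([INT]), 157 are terminal repeats ([LTR]) and 238 carry no such tag. Superfamilies were read from the entry names by dropping the number and the tag, which gave 37 superfamilies. Classes such as DNA transposons were assigned from these names.

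The study sequenced small RNAs from gonads of cichlids of the East African Great Lakes and from AC muscle, to profile piRNAs and their targets. In AC muscle, a somatic control, the paper found no prominent set of small RNAs with piRNA length and signatures. All fish were wild type. Each replicate was a piece of the organ from size-matched fish of the same species, and their age and reproductive stage were not given in the sources used here. Some ovary samples did not pass the study's quality control and were left out by its authors, and the retained AC ovary libraries held fewer reads than the testes libraries.

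piRNAs are small RNAs bound by Piwi proteins of the Argonaute family, and in the animal germline they guide the silencing of TEs by sequence complementarity. A piRNA pool therefore bears on which TEs a gonad is directed against. It depends both on which piRNA source regions are transcribed and on which TE transcripts are cleaved. DNA transposons move as DNA, whereas LTR elements, LINEs and SINEs move through an RNA copy.

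Levels are given as DESeq2 regularised log (rlog) values, on a log2 scale, so a difference of 1 is a doubling. They were made from reads of 24 to 35 nucleotides, selected by length alone, so other small RNAs of that length cannot be told apart from piRNAs. Every value is the total over all copies of a family and is not divided by length or copy number, so levels of different families say how much of the pool each takes and not how densely it is covered. The table holds no genes, and the organ labels could not be checked against markers. Libraries of the same organ resembled each other more than those of different organs, with Pearson correlations across families of 0.986 to 0.989 between ovaries, 0.992 to 0.994 between testes and 0.958 to 0.978 across organs. Because the samples are bulk tissue, fewer cells of a type and less RNA per cell cannot be told apart.

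To find the families with testis- or ovary-biased piRNAs, the organs were compared with limma in the 554 entries whose mean reached 10 when converted to linear values. The call was an adjusted p under 0.05 (Benjamini-Hochberg over all entries tested). Of these entries, 42.1% were called: 115 (20.8%) were higher in testes and 118 (21.3%) were lower. Most called differences were modest. The median fold among called entries was 1.45 for those higher in testes and 1.47 for those lower, and only 6 and 10 entries respectively passed a log2 difference of 1. The libraries of the organs did not overlap in 267 entries (48.2%), 134 of them higher in testes (24.2%) and 133 lower (24%). Without ovary replicate 3, 90 entries (16.2%) were higher and 109 (19.7%) lower (35.9% called), and 187 of these calls were also made with all libraries. This ovary library was the nearest to the testes per read and in NA-DNA-22, but over all families it correlated least with them (0.958 to 0.966, against 0.964 to 0.978 for the other ovaries).

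Calls were unevenly spread over the range of levels. When the entries were ranked by mean level, 27.0% of the 185 lowest were called, against 47.3% of the 184 in the middle and 51.9% of the 185 highest. Among the highest 64 entries were lower in testes and 32 higher, whereas in the middle 33 were lower and 54 higher. Rare entries have their differences shrunk by the rlog transformation, and its part in their low share of calls was not tested.

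The direction of a call depends on what a library is scaled to. The deposited values are relative to a typical family. Scaling every library to all of its 24 to 35 nucleotide reads instead added 1.36 to the log2 difference of every entry, and scaling to the summed values of the table added 0.38. Neither changed the order of the entries. With the former, 55.1% of entries were called, 304 (54.9%) higher in testes and 1 (0.181%) lower. With the latter 53.2% were called, 267 (48.2%) higher and 28 (5.05%) lower. All 115 entries called higher in testes kept that call per read. Of the 118 called lower, 4 kept a negative sign per read (NA-DNA-22, Pao-18_[INT], Maverick-1 and Pao-10_[INT]) and only NA-DNA-22 was still called. "Lower in testes" in what follows therefore means lower relative to the other families, and every other lower entry named was above 0 when expressed per read. Per read, the median family stood 2.46, 1.30 and 0.27 below the testes mean in ovary replicates 1, 2 and 3.

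**Figure D1:**
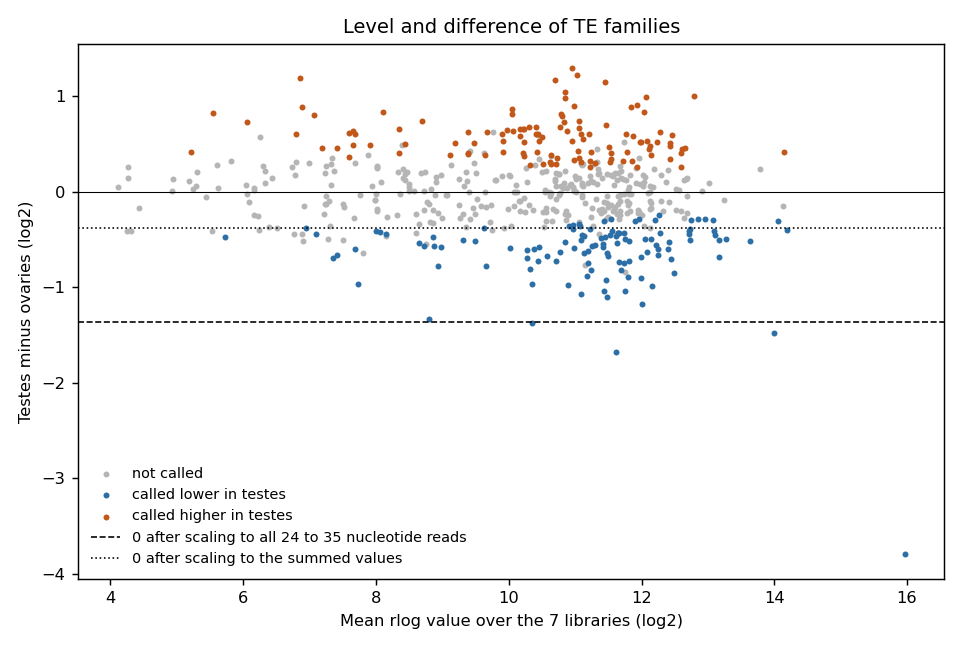
Mean rlog value over the 7 AC gonad libraries (x axis, log2) against the difference between testes and ovaries (y axis, log2), with 1 point per TE entry tested (554) coloured by its limma call. Entries called lower are most frequent at high levels, and only 4 points lie below the dashed line at −1.36, under which a family is also lower per read; the dotted line at −0.38 is the same border for the summed values.

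DNA transposons carried most of the testis-biased entries. Of 132 tested, 65 were higher in testes and 14 lower, with a median log2 difference of 0.28 against −0.01 over all entries. LTR elements went the other way, with 36 higher and 90 lower of 348 and a median of −0.14. Their lower share was 25.9%, against 21.3% of all entries, and Gypsy held 67 of the 90. Of Gypsy and ERV1 entries 32.5% and 35% were lower, against 13.4% in Pao, 20% in the group named only LTR and 0% in Copia. Calls of LINEs were balanced, with 13 higher and 11 lower of 70 and a median of 0.00. The 3 SINE entries were all lower and the single rolling-circle element was higher. Leaving out 1 library at a time gave 51 to 68 higher entries among DNA transposons and 76 to 94 lower among LTR elements. The count of 14 lower DNA transposons became 9 without testes replicate 1, and that of 11 lower LINEs became 6, 7 and 7 without testes replicates 1, 2 and 4. The medians of LTR elements and SINEs were above 0 per read (1.22 and 0.39), and with the summed values LTR elements were at 0.24 and SINEs at −0.60.

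**Figure D2:**
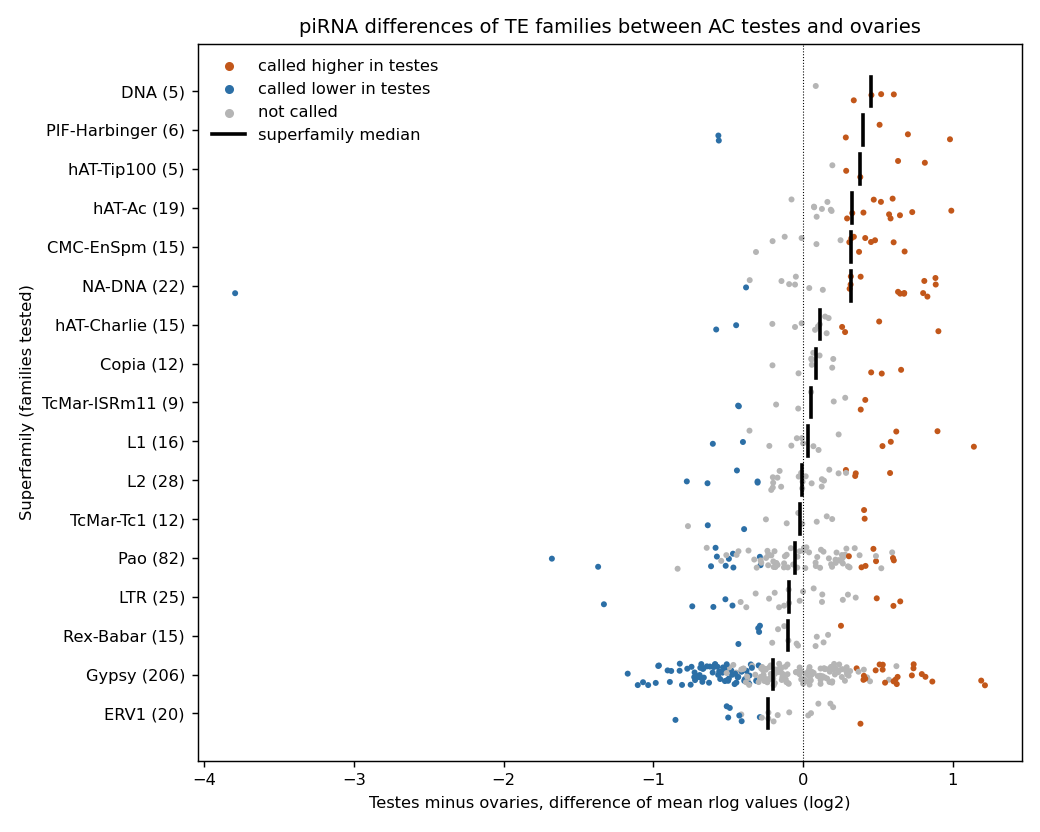
Difference between AC testes and ovaries (x axis, log2) of every tested entry in the 17 superfamilies with at least 5 tested entries (y axis, number tested in brackets), coloured by limma call. Black bars are superfamily medians, which run from −0.23 in ERV1 to 0.46 in the group named DNA, and the point at −3.79 is NA-DNA-22.

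The hAT transposons, which excise and reinsert through a transposase of the hAT type, were called higher in testes more often than entries at large. Of 43 hAT entries, 23 (53.5%) were higher in testes and 2 (4.65%) lower, against 20.8% and 21.3% of all entries tested. The other 18 were not called. A positive difference was found in 37 hAT entries, and the median was 0.28. Within them hAT-Ac had 11 higher and 0 lower of 19 (median 0.33), hAT-Tip100 4 and 0 of 5 (0.38), and hAT-Blackjack 3 and 0 of 3 (0.60). hAT-Charlie was mixed, with 4 higher and 2 lower of 15 (0.11). The 4 higher hAT-Charlie entries became 2 without ovary replicate 3 or without any 1 testes library, and the 4 of hAT-Tip100 became 2 without ovary replicate 1 or testes replicate 1. With the summed values all 19 hAT-Ac entries were called higher, against 11 before, but so were 48.2% of all entries tested.

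hAT-Ac-10 had 11.58, 11.53 and 11.40 in the ovaries and 12.55, 12.39, 12.57 and 12.47 in the testes. All testes lay above all ovaries by far more than the spread within either organ, and the log2 difference was 0.99 (SE 0.09, limma adjusted p = 7.79e-05). hAT-Blackjack-1 had 10.10, 10.05 and 9.95 in ovaries and 11.35, 11.04, 11.30 and 11.11 in testes. It had the largest rise of the hAT entries, at 1.17 (SE 0.11, limma adjusted p = 9.33e-05), and the other hAT-Blackjack entries rose by 0.52 and 0.60. hAT-Charlie-7 was tightly held in the ovaries (11.40, 11.39 and 11.45) and more variable in testes (12.42, 12.25, 12.51 and 12.09). Its difference was 0.91 (SE 0.11, limma adjusted p = 0.000349). Separate organs were a condition for naming the entries with the largest differences, so separation is not a further result for them. hAT-Tip100-3 was lower in level, with 9.58, 9.67 and 9.51 in ovaries against 10.33, 10.58, 10.51 and 10.19 in testes, a difference of 0.81.

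PIF transposons, cut-and-paste elements that in other species need a DNA-binding protein besides their transposase, included the entry with the largest rise of all. PIF-ISL2EU-4 had 10.42, 10.37 and 9.86 in the ovaries and 11.46, 11.28, 11.39 and 11.90 in the testes. The lowest testes library lay above the highest ovary, and the 2.44-fold difference (log2 1.29, SE 0.18) had a limma adjusted p of 0.00075. Of the other PIF-ISL2EU entries, PIF-ISL2EU-1 and PIF-ISL2EU-2 rose by 0.44 and 0.66, and PIF-ISL2EU-3 was not called at 0.10. PIF-Harbinger had both directions, with 4 higher and 2 lower of 6. The 4 higher became 3 when any 1 library other than ovary replicate 1 was left out. PIF-Harbinger-6 (ovaries 10.35, 10.38 and 10.12, testes 11.37, 11.27, 11.34 and 11.08) rose by 0.98 (SE 0.11), whereas PIF-Harbinger-1 and PIF-Harbinger-8 fell by 0.56 and 0.57.

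The remaining cut-and-paste groups differed among themselves. CMC-EnSpm had 9 higher and 0 lower of 15 (median 0.32), and its largest change was CMC-EnSpm-1, with 9.85, 10.05 and 9.86 in ovaries and 10.58, 10.57, 10.55 and 10.69 in testes (difference 0.68, SE 0.10, limma adjusted p = 0.000794). The 9 higher became 7 without testes replicate 1, and without testes replicate 4, 1 CMC-EnSpm entry was also called lower. The group named only DNA had 4 higher and 0 lower of 5, led by DNA-2 at 0.61. Its 4 became 3 without ovary replicate 3 or testes replicate 1 or 2. Sola-2-1, the single Sola entry, was flat within each organ (10.20, 10.31 and 10.23 against 11.36, 11.29, 11.19 and 11.33) and rose by 1.04 (SE 0.09, limma adjusted p = 7.79e-05). PiggyBac-2 (0.52), TcMar-Tigger-2 (0.66), IS3EU-1 (0.40) and hAT-1 (0.43) were also higher. PiggyBac-1 and PiggyBac-5 were not called, at 0.22 and 0.18, although 2 PiggyBac entries were called without ovary replicate 1.

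Tc1-Mariner elements, which are abundant in fish genomes, showed no common direction. TcMar-Tc1 had 2 higher and 2 lower of 12 (median −0.02) and TcMar-ISRm11 2 and 2 of 9 (0.05). The 2 lower TcMar-Tc1 entries became 4 without ovary replicate 3 and 1 without ovary replicate 1 or any 1 testes library, and the 2 higher became 1 without ovary replicate 3 or testes replicate 1 or 3. TcMar-ISRm11 had 1 higher and 1 lower without ovary replicate 3 or testes replicate 1 or 3, and 1 lower without ovary replicate 1. Over all 26 TcMar entries, 5 were higher and 4 lower. These counts moved between 3 and 8 and between 2 and 5 when 1 library was left out. There were 8 higher without ovary replicate 1, and 3 higher without ovary replicate 3, testes replicate 1 or testes replicate 3. Only 2 were lower without ovary replicate 1, testes replicate 1 or testes replicate 3. TcMar-Tc1-1 had 12.69, 12.42 and 12.24 in ovaries and 11.68, 12.04, 11.82 and 11.72 in testes and fell by 0.64 (SE 0.13, limma adjusted p = 0.00311). TcMar-ISRm11-5 was called lower at −0.43 although its organs overlapped (ovaries 12.11, 11.61 and 12.03, testes 11.31, 11.59, 11.33 and 11.70), and the call was lost without ovary replicate 1 or 3 or testes replicate 1 or 3 (limma adjusted p from 0.0863 to 0.127). The MULE-MuDR entries went both ways, with MULE-MuDR-2 at 0.44 and MULE-MuDR-3 at −0.41, and the call of the former was lost without ovary replicate 2 or 3 or testes replicate 1 or 3.

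The NA-DNA group, counted with the DNA transposons from its name alone, joined both ends of the range. Of 22 entries 13 were higher in testes and 2 lower, with a median of 0.32, and 9 of the 13 rose by 0.64 to 0.89. The 2 lower became 1 without ovary replicate 1 or testes replicate 1, 2 or 4. NA-DNA-22 fell by 3.79 and stood apart from all other entries. It had 18.73, 18.46 and 17.23 in the ovaries and 14.20, 14.34, 14.29 and 14.54 in the testes, so that the lowest ovary exceeded the highest testes library by more than the spread within the ovaries. The fold was 13.9 (SE 0.30 on the log2 scale, limma adjusted p = 7.79e-05), and per read the difference was still −2.44. The ovaries were not alike: NA-DNA-22 made up 24.4% and 20.9% of the summed values in ovary replicates 1 and 2 but 9.89% in replicate 3, against 1.45% to 1.85% in testes. It had the highest level of any entry in every ovary, and in testes its mean (14.34) was close to that of Helitron-1 (14.32), which was the higher of them in testes replicates 1 and 3. In the single AC muscle library it stood at 19.94, above all 7 gonad libraries. Maylandia zebra (MZ) testes had 16.92 and 14.92 and Tropheops sp. 'mauve' (TM) testes 14.83, 15.35, 15.20 and 15.93, all above the AC testes and below the AC ovaries. The order of the ovaries in NA-DNA-22 was that of their distance from the testes per read, and the part of read content in its level was not tested.

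Mavericks, giant DNA transposons that encode their own DNA polymerase, were ovary-biased, unlike most other DNA elements. Maverick-1 had 14.80, 14.53 and 15.21 in the ovaries and 13.42, 13.41, 13.22 and 13.42 in the testes. It was the second most abundant entry in the ovaries and the eighth in the testes, and it fell by 1.48 (2.79-fold, SE 0.14, limma adjusted p = 0.000156). Per read its difference was −0.12 and was not called. Maverick-3 (−0.46) and Maverick-2 (−0.25) were called with smaller differences. Leaving out any 1 library lost at least 1 of the 3 Maverick calls. Only 1 was left without testes replicate 1 or testes replicate 3, and 2 without any other library. With the summed values, with or without NA-DNA-22, 1 of the 3 was called lower. The muscle library had 13.02 for Maverick-1, below every gonad library.

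**Figure D3:**
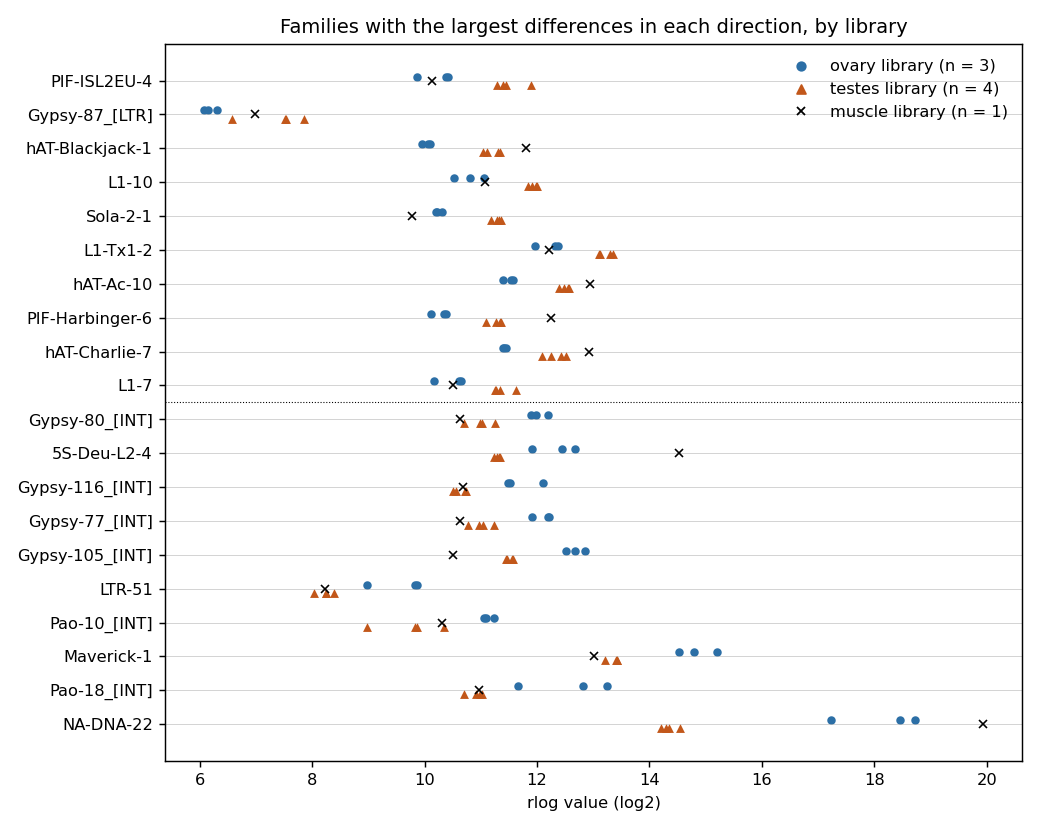
rlog value (x axis, log2) of the 10 entries with the largest called difference in each direction among those whose libraries did not overlap (y axis, ordered by difference), with 1 point per ovary library (n = 3), testes library (n = 4) and the muscle library (n = 1). Circles and triangles are separate in every row, and among the entries lower in testes NA-DNA-22 and 5S-Deu-L2-4 have their highest value in muscle.

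Helitron-1, a rolling-circle transposon, ranked by its mean seventh in the ovaries (13.78, 13.92 and 14.03) and second in the testes (14.38, 14.32, 14.40 and 14.17). The organs did not overlap, and the difference was 0.41 (SE 0.09, limma adjusted p = 0.00719).

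LINEs copy themselves with a reverse transcriptase that they encode, and their superfamilies split by name. L1 had 5 higher and 2 lower of 16 (median 0.04) and held some of the largest differences in the table. L1-10 had 10.80, 11.06 and 10.52 in ovaries and 12.00, 11.91, 11.99 and 11.84 in testes. The gap between organs exceeded the ovary spread, and the difference was 1.14 (SE 0.12, limma adjusted p = 0.000283). L1-7 (ovaries 10.17, 10.61 and 10.65, testes 11.62, 11.28, 11.34 and 11.25) rose by 0.90. L1-3, the third most abundant entry in the ovaries and the fourth in the testes, went the other way, with 14.37, 14.36 and 14.52 in the ovaries against 13.99, 14.05, 14.02 and 14.02, a fall of 0.40 (SE 0.08, limma adjusted p = 0.00301). Its muscle value was 16.09.

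Of the related L1-Tx1 entries, L1-Tx1-2 rose from 11.97, 12.37 and 12.32 to 13.36, 13.10, 13.30 and 13.11, a doubling (log2 1.00, SE 0.12, limma adjusted p = 0.000349) that took it from rank 71 to rank 9. L1-Tx1-1 rose by 0.83 and L1-Tx1-4 was not called at 0.13. Proto2-1, the only Proto2 entry, rose by 0.62.

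L2, the largest LINE superfamily, had 4 higher and 5 lower of 28 and a median of −0.01. Its counts were not stable: 9 were lower without ovary replicate 1 and 3 without ovary replicate 3 or any 1 testes library, and 2 were higher without any 1 testes library. L2-17 fell by 0.78 (ovaries 9.41, 9.25 and 9.46, testes 8.68, 8.51, 8.41 and 8.79, limma adjusted p = 0.00131). The abundant L2-8 was called lower at −0.30 but kept that call only without ovary replicate 1 (limma adjusted p from 0.0556 to 0.0979 without each of the others), and L2-6, with a difference of −0.15, was not called. Rex-Babar, a LINE superfamily of fishes, had 1 higher and 4 lower of 15 (median −0.10). The 4 lower became 1 without testes replicate 1 and 2 without ovary replicate 1 or 2 or testes replicate 2 or 4, and the 1 higher was lost without ovary replicate 3 or any 1 testes library. Rex-Babar-8 fell by 0.43 (ovaries 12.66, 12.55 and 12.38, testes 12.10, 12.06, 12.23 and 12.01, limma adjusted p = 0.0058). No entry of RTE-BovB, Penelope or Dong-R4 was called.

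SINEs encode no protein and depend on the enzymes of LINEs. The 3 entries, all 5S-Deu-L2, fell by 0.92 to 1.04. 5S-Deu-L2-4 had 12.67, 12.45 and 11.90 in the ovaries and 11.24, 11.33, 11.35 and 11.28 in the testes (difference −1.04, SE 0.16, limma adjusted p = 0.00102). Ovary replicate 3 was again the nearest to the testes, which lay within 0.11 of each other. With the summed values the SINE median was still negative, at −0.60, but per read it was 0.39. The muscle library was above all ovaries for each of them and reached 14.52 for 5S-Deu-L2-4.

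LTR elements held 90 of the 118 entries that were lower in testes, and Gypsy (also called Ty3) alone held 67. They were also 348 and 206 of the 554 entries tested. Of LTR entries 25.9% were lower and of Gypsy entries 32.5%, against 21.3% of all entries. Gypsy had 21 higher and 67 lower of 206 and a median of −0.20. Pao had 7 higher and 11 lower of 82 (−0.05), ERV1, a group of endogenous retroviruses, 1 and 7 of 20 (−0.23), and elements named only LTR 3 and 5 of 25 (−0.10). Copia had 3 higher and 0 lower of 12 (0.09) and DIRS-1, an element with a tyrosine recombinase, was higher at 0.26, a call kept only without ovary replicate 3 or testes replicate 4 when 1 library was left out. Without ovary replicate 3, Gypsy had 14 higher and 59 lower, Pao 4 and 12, ERV1 1 and 6, and Copia 1 and 0. The 7 lower ERV1 entries became 4 without testes replicate 3, the 7 higher Pao entries 4 without testes replicate 1 or 4 and 3 without testes replicate 3, and the 3 of Copia 1 without ovary replicate 1 or testes replicates 2 or 3. With the summed values the medians of Gypsy, Pao, ERV1 and LTR were all above 0 (0.18, 0.33, 0.15 and 0.28). Called Gypsy entries were then mostly higher in testes, 66 against 17 called lower.

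Pao-18_[INT] had the largest fall among retroelements. It had 12.82, 11.67 and 13.25 in the ovaries and 10.91, 10.98, 10.69 and 11.02 in the testes. The ovaries were scattered (SD 0.82) but all lay above the testes (SD 0.14), and the difference was −1.68 (3.20-fold, SE 0.30, limma adjusted p = 0.00198). Pao-10_[INT] was the reverse in spread, with 11.09, 11.05 and 11.24 in ovaries and 9.87, 8.98, 9.83 and 10.35 in testes, and fell by 1.37 (SE 0.26, limma adjusted p = 0.00245). MZ and TM testes ranged from 10.59 to 11.25 for Pao-10_[INT], above all AC testes and in part as high as the AC ovaries. LTR-51, with 9.82, 8.98 and 9.86 in ovaries and 8.24, 8.24, 8.04 and 8.39 in testes, fell by 1.33.

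Gypsy-105_[INT] was the Gypsy entry with the largest fall. It had 12.67, 12.52 and 12.86 in the ovaries and 11.56, 11.57, 11.47 and 11.45 in the testes, a difference of −1.17 (2.25-fold, SE 0.10, limma adjusted p = 7.79e-05). Gypsy-77_[INT] (ovaries 12.21, 11.92 and 12.19, testes 10.76, 11.24, 11.03 and 10.97) fell by 1.10 and Gypsy-80_[INT] (ovaries 11.99, 11.89 and 12.19, testes 10.70, 11.25, 11.01 and 10.99) by 1.03. These Gypsy entries ranked the testes alike, with replicate 1 lowest and replicate 2 highest in both, though not the ovaries, and a read that maps to both would be counted for 1 of them at random. Gypsy-116_[INT] fell by 1.07 (ovaries 11.47, 11.52 and 12.11, testes 10.56, 10.73, 10.51 and 10.73). Its MZ and TM testes values, from 10.63 to 11.51, lay between or near both AC organs. ERV1-9_[INT] (ovaries 13.21, 12.88 and 12.82, testes 12.04, 12.20, 12.06 and 12.17) fell by 0.85 (SE 0.11, limma adjusted p = 0.000497).

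Testis-biased LTR entries were fewer and in part less regular. Gypsy-87_[LTR], at a low level, had 6.30, 6.08 and 6.15 in ovaries and 7.85, 6.58, 7.53 and 7.51 in testes, a difference of 1.19 (SE 0.26, limma adjusted p = 0.00544), and its internal region rose by 0.55. Gypsy-33_[INT] was called at 1.22 (SE 0.38, limma adjusted p = 0.0281), but its testes split into a high pair (12.31 and 12.20) and a low pair (10.91 and 10.79), the latter at the level of ovary replicate 2 (10.79). Its call was lost without ovary replicate 1 or 3 or testes replicate 1 or 3 (limma adjusted p from 0.0561 to 0.107). Copia-2_[INT] (ovaries 9.63, 9.95 and 9.78, testes 10.40, 10.40, 10.58 and 10.38) rose by 0.66 (SE 0.11, limma adjusted p = 0.00159).

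Among LTR elements, lower calls were more frequent in internal regions than in terminal repeats. Internal regions encode the gag and pol proteins, and terminal repeats hold the promoter. Over all entries tested, 21.3% were lower and 20.8% higher. Of 103 Gypsy internal regions 51 were lower in testes and 9 higher (median −0.34), whereas of 100 Gypsy terminal repeats 14 were lower and 12 higher (−0.12). ERV1 internal regions had 6 lower and 0 higher of 10 (−0.35) and Pao internal regions 9 lower and 4 higher of 41 (−0.18), against 1 and 1 of 10 (−0.07) and 1 and 3 of 39 (0.02) for their terminal repeats. The 4 higher Pao internal regions became 2 without ovary replicate 3 or testes replicate 3 or 4. Of the Pao terminal repeats, the 1 lower became 4, 3 and 2 without ovary replicate 2, testes replicate 2 and testes replicate 3, and the 3 higher became 1 without testes replicate 1 or 3. The 6 lower ERV1 internal regions ranged from 4 to 7, and the 1 lower ERV1 terminal repeat was lost without ovary replicate 1 or 2 or testes replicate 1 or 3. The 9 higher Gypsy internal regions became 5 without ovary replicate 3, and the 12 higher terminal repeats became 7 without testes replicate 1. Per read the median differences of all these groups were above 0. Where both parts of an element were tested, the median level was 11.35 for internal regions and 8.18 for terminal repeats. Entries at low levels were called less often, and the part of level in this contrast was not tested.

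For 154 elements both parts were tested, which allowed a comparison between parts of the same name. Each entry is a total over all copies of its part, so the parts need not come from the same insertions. The internal region had the lower difference in 102 of the 154 elements and the higher in 52. The median was −0.26 for internal regions and −0.04 for terminal repeats. Because both parts share the library, scaling cancels in the value of the internal region minus that of the terminal repeat. Tested with limma on that value across the 154 elements, a test added after the values were seen, 43 elements (27.9%) were called, 36 with the internal region lower in testes relative to its repeat and 7 with it higher. The 36 were 23.4% of the 154 elements. They were 27 of 99 Gypsy elements, 5 of 10 ERV1 and 4 of 39 Pao. Leaving out 1 library gave 24 to 32 lower and 3 to 11 higher. The 7 became 3 without ovary replicate 1, testes replicate 1 or testes replicate 3, 4 without ovary replicate 3 and 11 without ovary replicate 2. Terminal repeats were far lower in level, with the internal region above the repeat in 152 of 154 elements, so that rlog shrinkage acts more on the repeats. Its part in the difference was not tested.

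In 2 elements the parts were called in opposite directions. Gypsy-81_[INT] had 11.93, 12.16 and 12.39 in ovaries and 11.44, 11.39, 11.20 and 11.32 in testes (−0.82), while Gypsy-81_[LTR] had 7.20, 7.26 and 7.27 against 8.21, 8.11, 7.56 and 7.57 (0.62). The internal region minus the repeat differed between organs by −1.44 (SE 0.17, limma adjusted p = 0.000203). Gypsy-117 had −0.48 for its internal region and 0.74 for its repeat, and the same test gave −1.22 (SE 0.15, limma adjusted p = 0.000203). Gypsy-105 combined the fall of its internal region with a repeat at the same level in both organs (ovaries 10.63, 10.73 and 10.57, testes 10.90, 10.44, 10.40 and 10.79), a relative difference of −1.16 (limma adjusted p = 0.0014). Copia-2 was an example of the other direction, with 0.66 for the internal region and 0.07 for the repeat (relative difference 0.59, limma adjusted p = 0.0138).

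**Figure D4:**
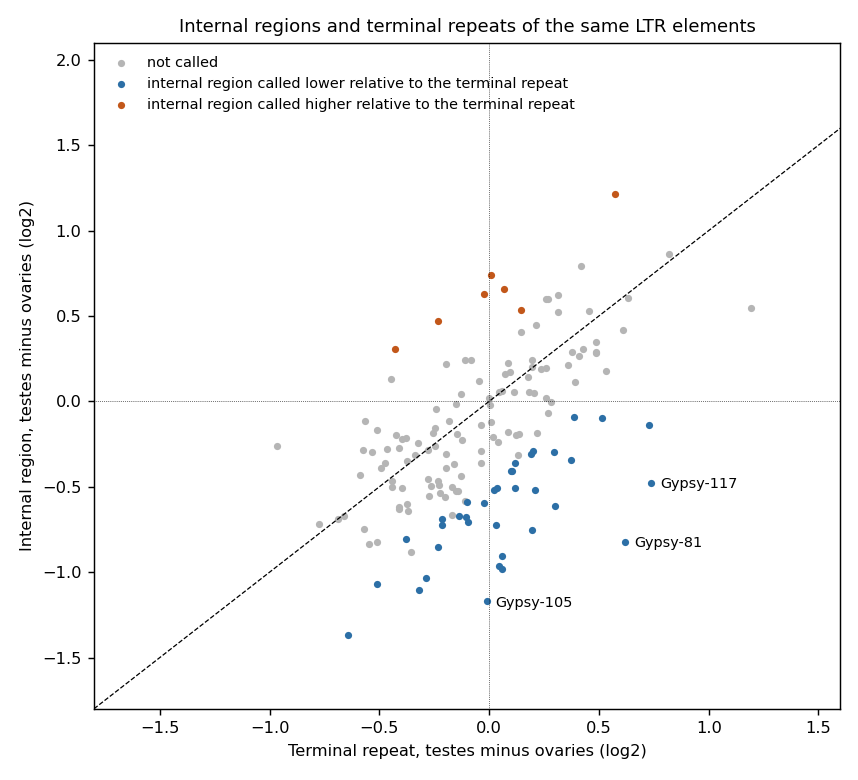
Differences between AC testes and ovaries (log2) of the terminal repeat (x axis) and the internal region (y axis) of 154 LTR elements, 1 point per element; the dashed line marks equal differences. Points are coloured where the difference between the parts was called by limma, and 36 blue points lie below the line against 7 orange points above it.

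With NA-DNA-22 counted, the pool was more concentrated in the ovaries. The 10 most abundant entries then held 32.8%, 29.6% and 21.5% in ovary replicates 1, 2 and 3 and 11.2% to 11.4% in testes. The most abundant entries that together made up 50% of the summed values numbered 52, 63 and 76 in these ovaries and 103 to 105 in the testes. These numbers were not computed without NA-DNA-22. With NA-DNA-22 set aside, the 10 most abundant entries held 11.8% to 13.7% in ovaries and 10.4% to 10.6% in testes. Of this remaining pool, LTR elements took between 50.5% and 52.3% in ovaries and between 45.8% and 46.9% in testes, and DNA transposons 22.8% to 25.3% and 27.3% to 27.8%. Gypsy took between 29.6% and 31.2% in ovaries and between 26.0% and 27.0% in testes, and Mavericks 2.73% to 3.97% and 1.63% to 1.88%. The hAT elements took between 5.78% and 6.27% in ovaries and between 8.08% and 8.41% in testes, and CMC-EnSpm 3.09% to 3.28% and 4.05% to 4.09%. None of these ranges overlapped between organs. Those of L2 did, with 8.78% to 10.23% and 9.30% to 9.49%. So did those of Pao (10.51% to 11.19% and 10.22% to 10.54%) and Copia (0.97% to 1.21% and 1.17% to 1.34%). LINEs together took 22.1% to 23.3% of the remaining pool in ovaries and 23.7% to 24.3% in testes. With NA-DNA-22 kept they took 16.7% to 21.0% and 23.3% to 23.9%, again without overlap. The direction of DNA transposons, LTR elements, Gypsy and ERV1 depended on setting NA-DNA-22 aside. With it kept, DNA transposons took 31.0% to 43.5% of the pool in ovaries and 28.5% to 28.9% in testes, the reverse order, and LTR elements (38.2% to 46.3% against 45.2% to 46.1%), Gypsy (22.4% to 26.8% against 25.6% to 26.6%) and ERV1 (4.40% to 5.36% against 4.70% to 5.07%) overlapped between organs. Mavericks (2.16% to 3.58% against 1.61% to 1.85%), hAT (4.74% to 5.21% against 7.93% to 8.28%) and CMC-EnSpm (2.45% to 2.87% against 3.99% to 4.03%) kept their order without overlap. Shares come from rlog values on the linear scale and are approximate.

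**Figure D5:**
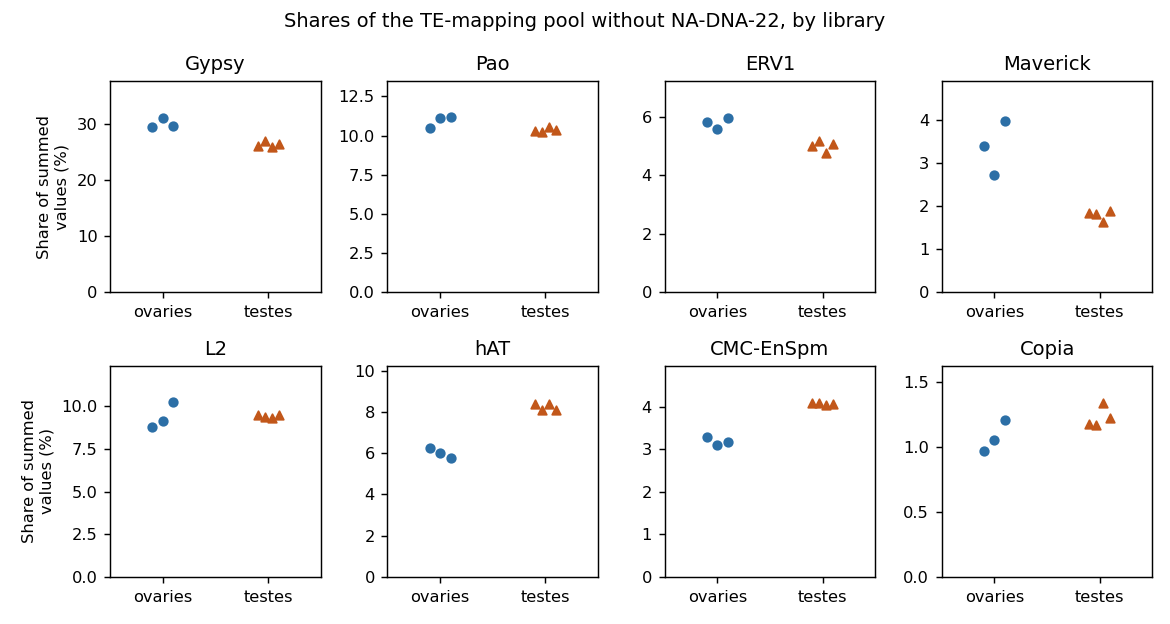
Share (%) of the summed linear values, NA-DNA-22 left out, taken by 8 TE groups in each AC ovary library (circles, n = 3) and testes library (triangles, n = 4). Gypsy, ERV1 and Maverick shares are higher in all ovaries, hAT and CMC-EnSpm shares in all testes, and L2, Pao and Copia shares overlap. With NA-DNA-22 kept, the Gypsy and ERV1 shares overlap, and those of Copia are higher in all testes.

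Ovaries varied more among themselves than testes did. The SD over libraries was larger in ovaries for 365 of the 554 entries, with a median of 0.167 against 0.124. TcMar-Tc1-17 was among the most variable in the ovaries, with 12.48, 11.62 and 10.66 against 10.71 to 10.93 in testes, and was not called (−0.77, limma adjusted p = 0.0851). Its muscle value was 14.69. In testes the largest SDs were those of Gypsy-33_[INT] (0.81) and Gypsy-51_[INT] (0.76). The latter had 12.22, 10.67, 10.97 and 12.00, and its organs overlapped (ovaries 11.04, 11.48 and 10.96).

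The muscle library, a single sample with few reads, was set beside the calls. Its values cannot be taken as piRNA levels, since the paper found no prominent piRNA-like population in muscle. The ovary values enter both the calls and this comparison, so the counts are a description only. Among the 321 entries not called, muscle lay above all ovaries in 121 and below all of them in 123. Of the 118 entries lower in testes, muscle lay below all ovaries in 92 and above all of them in 18. These 18 included NA-DNA-22, all 3 SINEs, L1-3 and 4 Rex-Babar entries. Of the 115 entries higher in testes, muscle lay above all ovaries in 73 and below all of them in 25. Against the testes mean the median difference of muscle was −0.09 in entries called lower, −0.25 in those called higher and −0.02 in those not called. Muscle exceeded every testes library in hAT-Ac-10 (12.94), hAT-Charlie-7 (12.93), hAT-Blackjack-1 (11.80) and PIF-Harbinger-6 (12.25), and it was below every ovary in Sola-2-1 (9.77). The part of somatic cells in the organ differences was not tested.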

How the data were processed

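Small RNAs were sequenced from total RNA of AC ovaries (n = 3) and testes (n = 4), and the replicate numbers do not pair fish, since ovaries and testes come from different sexes. The authors removed adapters with cutadapt 1.15, mapped reads with STAR 2.5.4b (at most 2 mismatches, up to 100 loci, 1 alignment at random), counted reads of 24 to 35 nucleotides over TE families with featureCounts 1.6.0 and normalised them with DESeq2. The deposited values are rlog values on the log2 scale, 1 per entry and library, computed over 14 Malawi libraries (AC, MZ and TM gonads and 1 AC muscle sample). They hold no read numbers, so depth and counting error are not given per value, and copies that share reads cannot be separated. No setting for strand was found in the sources used here, so the values may pool piRNAs sense and antisense to a TE.

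The values were compared with limma 3.58.1 in R 4.3.3 (empirical Bayes with a mean trend, Benjamini-Hochberg adjustment), over AC testes and ovaries only. The test of internal regions against terminal repeats used no mean trend. Entries were tested where their mean rlog value reached 3.32, which is 10 on the linear scale. This left out 3 entries. Tables and figures used Python 3.11.15, numpy 2.4.6, pandas 2.3.3 and matplotlib 3.10.9. On simulated data for 554 entries of this comparison, the fit called 96 of 100 changed by 1, 71 of 100 changed by −0.5 and 6 of 354 unchanged. The simulated noise was independent between entries and equal in spread in both organs, whereas the real ovaries varied more than the testes. The simulation therefore does not give the error rate of the real calls.

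Named entries were the 10 with the largest called difference in each direction without overlap, the largest called difference in each superfamily with at least 5 tested entries, the 5 highest levels per organ, the other part of a named LTR element, and entries of superfamilies with at most 4 tested entries. PIF-Harbinger-1, PIF-Harbinger-8, Gypsy-81, Gypsy-117, Gypsy-51_[INT] and TcMar-Tc1-17, and the test of internal regions against terminal repeats, were chosen after values were seen. The comparison, the members and the lists were chosen with earlier results of these data known. Superfamilies are described by counts and medians without a test. Alternatives were other scalings (one used read totals given by the study), a pseudocount of 10, no filter and a minimum of 100, limma without trend, all gonad libraries in one fit, a replicate block, each library left out, and the default TE annotation. Tables of species from other lakes were not used here.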

Additional observations from a re-analysis of the deposited data

Results flagged for a closer look

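Among the 44 named entries, the 4 testes libraries were searched for a library set far apart from the others, which chance gives in about 1 of 20 groups of 4, and 3 entries had one. Maverick-1 had 13.22 in testes replicate 3, against 13.41 to 13.42 in the other testes. CMC-EnSpm-1 had 10.69 in testes replicate 4, against 10.55 to 10.58. Copia-2_[INT] had 10.58 in testes replicate 3, against 10.38 to 10.40. In each of them all testes libraries still lay on the same side of all ovary libraries.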

How the results depend on the processing

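Scaling to all 24 to 35 nucleotide reads changed the sign of most lower calls, and the other scalings did not. The summed values added 0.38, below the median size of 0.56 among the lower calls. Per 24 to 35 nucleotide read, 304 entries were higher in testes and 1 lower, and with the summed values 267 and 28, against 115 and 118. Per read, all but 4 of the entries called lower had a positive difference. The named differences that turned positive included LTR-51 (0.030), Gypsy-105_[INT] (0.19), Gypsy-77_[INT] (0.26), Gypsy-116_[INT] (0.29), 5S-Deu-L2-4 (0.32), Gypsy-80_[INT] (0.33), ERV1-9_[INT] (0.51), L2-17 (0.58), TcMar-Tc1-1 (0.72), Rex-Babar-8 (0.93), TcMar-ISRm11-5 (0.93), L1-3 (0.96), L2-8 (1.06), L2-6 (1.21), and the terminal repeats of Pao-10 (0.72), Gypsy-116 (0.85), Gypsy-77 (1.04), Gypsy-80 (1.07), ERV1-9 (1.13) and Gypsy-105 (1.35). With the summed values Maverick-2 (0.13), L2-8 (0.074), L2-6 (0.23), Gypsy-77_[LTR] (0.059), Gypsy-80_[LTR] (0.090), ERV1-9_[LTR] (0.15) and Gypsy-105_[LTR] (0.37) were among those that turned positive, and with NA-DNA-22 left out of the sum Gypsy-105_[LTR] (0.092) did.

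Without NA-DNA-22 in the sum 153 entries were higher and 87 lower, and centred on the median family 93 and 144. Leaving out 1 library gave 86 to 110 higher and 94 to 121 lower, and it turned the near-zero Gypsy-105_[LTR] (from −0.100 without testes replicate 1 to 0.066, with 0.034 without ovary replicate 2, 0.053 and 0.066 without testes replicates 2 and 3) and Copia-2_[LTR] (−0.013 without ovary replicate 3, at most 0.129 without any other library). With the replicate block 87 were higher and 95 lower, 178 of these 182 among the main calls. The deviations of same-numbered libraries correlated at −0.104, −0.098 and −0.047, so the numbers gave no sign of pairing. The default annotation gave 133 higher and 120 lower of 684 entries. Of 729 alternative values of named entries, 654 kept direction and call, 26 lost the call, 18 gained it and 31 changed sign. The settings differed in this. Scaling per read kept only 18 of 43 values and changed the sign of 20. With the summed values 30 of 43 were kept and 6 changed sign. Entries at low levels are limited by rlog shrinkage, and the number of ovary libraries (3) limits all results.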
